A study of Mus musculus with 104 samples.

Results

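The cell cycle and replication genes were the cyclins A, B, D and E, the cyclin-dependent kinases (Cdk), the Cdk inhibitors of the Cdkn1 and Cdkn2 groups, the Cdc25 phosphatases, the E2f transcription factors and the minichromosome maintenance (Mcm) genes. They were chosen by a rule on their symbols, made with earlier results of these data known. The rule was applied to genes whose probe sets carry 1 symbol in the array annotation. Each member was represented by the probe set with the highest mean over all arrays. By this rule 53 of 17097 genes were members. Of these, 44 passed the filter on dim probe sets and were tested among 11853 genes, and 9 lay under it. The 9 were Ccna1, Ccnb3, Ccne2, Cdk17, Cdk18, Cdkn2a, Cdkn2b, E2f7 and Mcm8, with means from 3.34 to 4.47 on the log2 scale and single arrays between 3.12 and 5.67.

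A cell passes from rest into division when D-type cyclins activate Cdk4 and Cdk6 and release E2f factors from the pocket proteins of the Rb family. E2f factors then raise the genes of DNA replication, among them the Mcm proteins, which form the helicase loaded at replication origins, and cyclins E, A and B carry the cell on to mitosis. Cdk inhibitors such as p21 (Cdkn1a), p27 (Cdkn1b) and p57 (Cdkn1c) hold this machinery back, and muscle stem cells in uninjured muscle are mostly quiescent, outside the cycle.

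The series measured RNA of muscle stem cells (satellite cells) on 104 arrays. All mice were Per1-Venus BAC transgenic animals on a C57B6/J background, which report activity of the clock gene Per1. They ate control food freely or were calorie restricted (CR), with 30% less food over 25 weeks, after 3 weeks of adaptation in steps of 10% a week, and were 19 to 29 weeks (adult) or 55 to 69 weeks (aged) old when adaptation began. The arms, named by the array titles, were adult control with 22 arrays, adult CR with 32, aged control with 24 and aged CR with 26, collected at T0, T4, T8, T12, T16 and T20, with 4 to 6 arrays per arm and time except adult control T20 with 1. Where 4 values are given in arm order, they follow this sequence of arms. The age tags of the 22 adult control arrays read 83 to 97 weeks, as the aged arrays' tags do, whereas those titled adult CR carry 47 to 57 weeks. Every comparison with the adult control arm rests on the titles, and the age comparison within CR is the one in which titles and tags match. How the cells were sorted is not stated in the labels.

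The defining muscle stem cell markers were present, with Pax7 at a mean of 9.84 and Myf5 at 9.44 (log2, all arrays). The 14 markers of that list ranged from Calcr at 6.01 to Sdc4 at 12.16. The 5 markers of activated or committed myoblasts ranged from Myog at 4.57, close to the filter at 4.50, to Des at 9.67. The clock genes followed the time labels, with 11 of 12 rhythmic in adult control, adult CR and aged CR and 12 of 12 in aged control. Several markers of other cells were at least as bright as Pax7. Among them were Myh11 at 11.04 (smooth muscle), Gsn at 10.86 (fibroadipogenic), and Pmp22 at 10.83 and Mbp at 10.38 (Schwann). Others were dim, such as Pdgfra at 3.77 (fibroadipogenic) and Ptprc at 3.3 (lymphocyte). Of 6 Schwann cell markers, 4 were higher in aged than adult cells on control food and 2 under CR, and 4, 5, 3 and 4 were rhythmic in arm order. Of the 14 muscle stem cell markers, 1 was lower with age on control food (list median -0.14), and 3, 5, 5 and 4 were rhythmic. All tested genes had rhythm shares of 10.6%, 22.4%, 10.8% and 16.5%. Their level shares were 0.422% (age, control food), 1.94% (age within CR), 1.05% (diet, adult) and 2.29% (diet, aged). Under CR, 3 of 5 fibroadipogenic markers (Dpt, Gsn and Col3a1) were lower in adult cells and 1 (Col3a1, -0.28) in aged cells. Of 5 pericyte and smooth muscle markers, Acta2 and Myh11 were higher with age within CR (0.31 and 0.48) and Kcnj8 was lower under CR in aged cells (-0.77), where Cd68 (macrophage, 0.38) and Cd79a (lymphocyte, 0.30) were higher. The lowest correlation between 2 arrays of an arm and time was 0.962, and no array was left out. Fewer cells of a type and less RNA per cell cannot be told apart in such bulk samples.

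By the brightest probe set of each gene, most members had no called daily rhythm. In all, 13 calls fell on 10 of the 44 genes, and 34 were called in no arm. In adult control 2 members were called, Ccnd1 and Cdk20, which is 4.55% of the members against 10.6% of all tested genes. In adult CR 7 were called (15.9% against 22.4%), in aged control 0 (against 10.8%), and in aged CR 4 (9.09% against 16.5%). The members' shares were thus under the background in each arm. This held for the brightest probe sets: averaging a gene's probe sets gave 5, 13, 5 and 5 members in the order adult control, adult CR, aged control, aged CR. With every probe set fitted by itself 18 genes were called, and 11.8%, 26.3%, 10.5% and 10.5% of the member probe sets passed, beside 10.8%, 22.6%, 10.9% and 16.8% of all probe sets. For the aged control arm, where limma's adjusted test called none, 11 of 44 members had an unadjusted p under 0.05, beside 28.3% of all genes, and the lowest adjusted values were those of Mcm6 (0.0714) and Cdk4 (0.0741). The median fitted amplitude of the members, the distance from day mean to peak, was 0.13, 0.14, 0.14 and 0.14 in the 4 arms in the order above, beside 0.14, 0.13, 0.14 and 0.14 for all genes (log2).

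**Figure D1:**
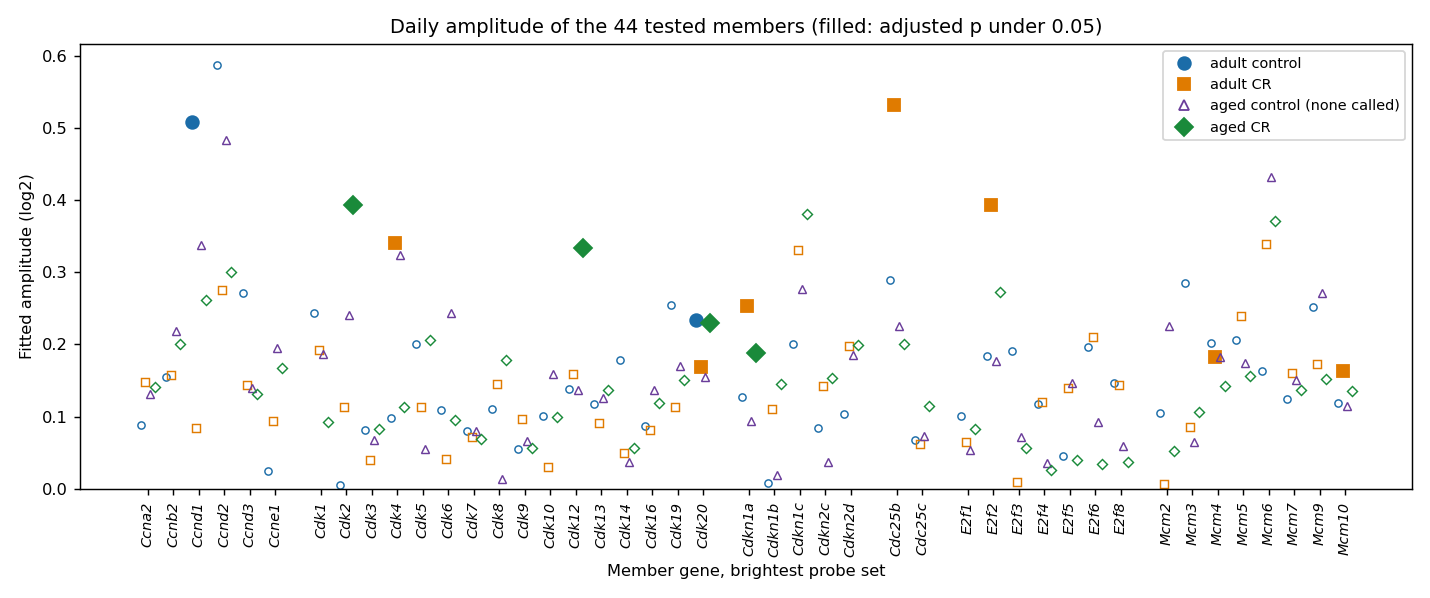
Fitted daily amplitude (log2, y axis) of each of the 44 tested members (x axis, grouped as cyclins, Cdks, Cdk inhibitors, Cdc25, E2f and Mcm genes), with 1 symbol per arm. Filled symbols have an adjusted p under 0.05 in limma's rhythm test; they are 13 in number, fall on 10 genes, and none belongs to the aged control arm.

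Among the Cdk inhibitors, Cdkn1a, which encodes p21 and is a classical target of p53, rose over the day towards T20 in both CR arms. In adult CR its mean was 10.71 ± 0.18 at T0 (SD, n = 5), 10.58 ± 0.14 at T4 (n = 6), 10.60 ± 0.18 at T8 (n = 5), 10.78 ± 0.17 at T12 (n = 6), 10.99 ± 0.05 at T16 (n = 5) and 11.07 ± 0.13 at T20 (n = 5). At T16 and T20 the lowest array (10.90) lay above the highest array of T4 and of T8 (10.77). The fitted amplitude was 0.25 ± 0.04 (SE, log2), a peak-to-trough ratio of 1.42, with the peak at 17.8 ± 0.59 h (limma adjusted p = 5.17e-06). In aged CR the means were 10.72, 10.62, 11.01, 10.92, 11.02 and 11.14 from T0 to T20, with SDs from 0.06 to 0.19 (n = 4 or 5). There the lowest array of T8 (10.88) already lay above the highest of T4 (10.77). The amplitude was 0.19 ± 0.04 with the peak at 15.6 ± 0.87 h (limma adjusted p = 0.00478). The second Cdkn1a probe set was rhythmic in the same arms, with amplitudes of 0.29 and 0.25 and peaks at 18.1 and 16.4 h.

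In the control arms the fitted Cdkn1a amplitudes were 0.13 (adult, adjusted p = 0.146) and 0.09 (aged, adjusted p = 0.291). T20 was nonetheless the time of the highest mean in 4 of 4 arms, at 11.08 in the 1 adult control array and 11.10 ± 0.08 in aged control (n = 4). A test of the difference between the CR and control rhythms in aged cells gave p = 0.00886 and an adjusted p of 0.209, so the arms were not shown to differ. Between the CR arms the fitted peak came 2.18 h earlier in aged cells, with an SE of 1.05 h. That rhythm difference did not pass either (adjusted p = 0.539).

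**Figure D2:**
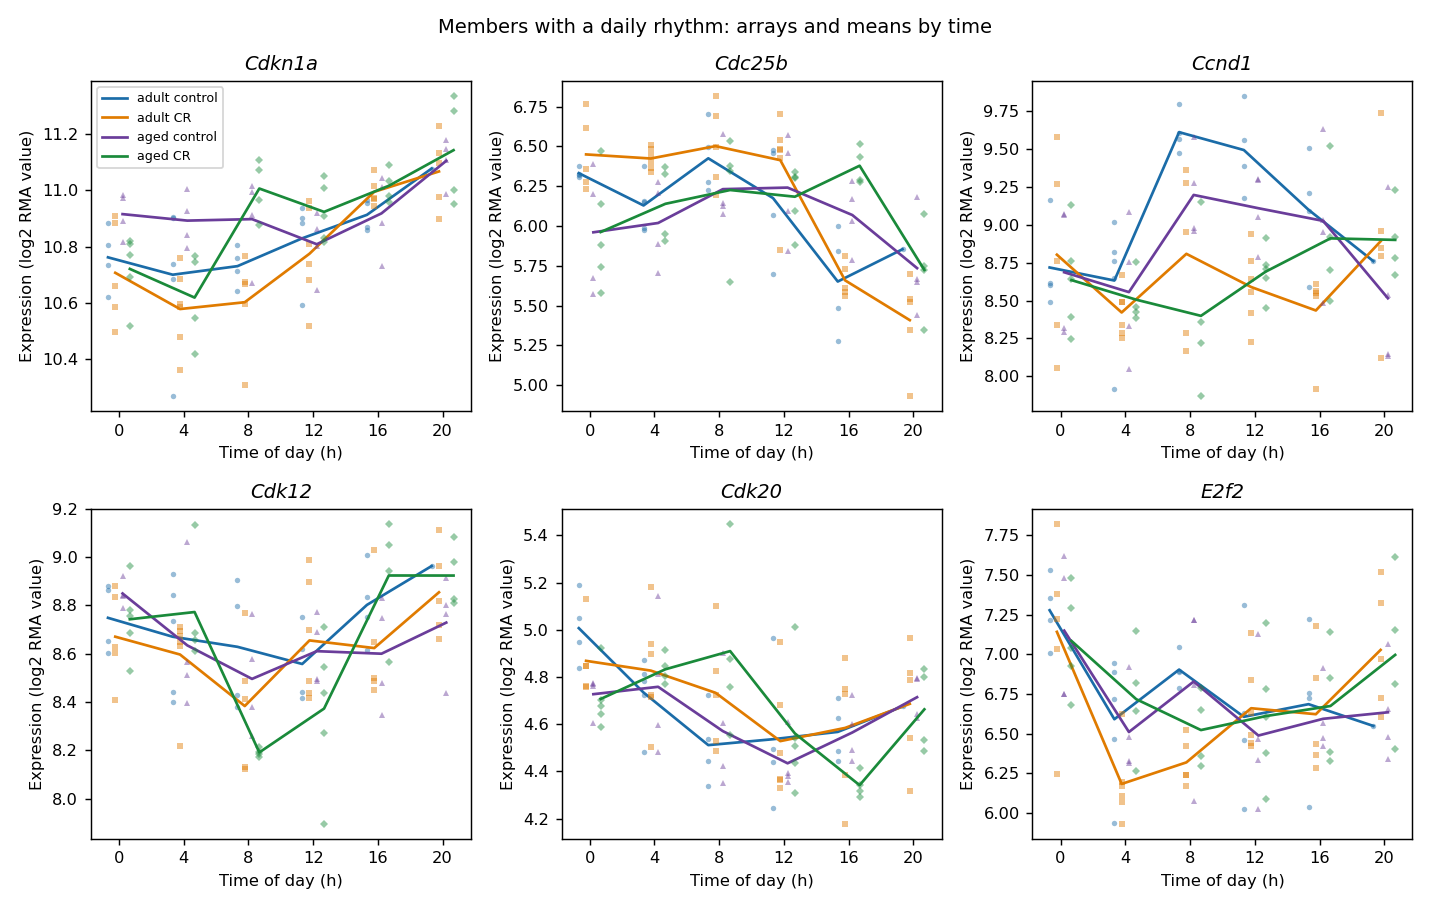
Log2 RMA values (y axis, its own range in each panel) against time of day in hours (x axis) for the 6 members called in most arms or with the smallest p. Points are single arrays and lines join the means of each arm; points of the arms are offset sideways. Cdkn1a is highest at T20 in all 4 arms, whereas Cdc25b of adult CR drops from 6.41 at T12 to 5.41 at T20.

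Cdkn1b, which encodes p27, gave a different answer from each of its 2 probe sets. The brightest one varied little over the day, with amplitudes from 0.01 to 0.15 and adjusted p from 0.184 to 0.997 over the 4 arms in the fit of all probe sets. The other, with a mean of 9.22, was called in every arm. Its means in aged control were 8.76 ± 0.13 at T0, 8.93 ± 0.22 at T4, 9.37 ± 0.21 at T8, 9.31 ± 0.15 at T12, 9.56 ± 0.19 at T16 and 9.13 ± 0.17 at T20 (SD, n = 4 each). The lowest array of T16 (9.40) lay above the highest arrays of T0 (8.94) and T4 (9.20), while the arrays of T8 and T4 overlapped. The fitted amplitudes were 0.28, 0.34, 0.35 and 0.31 in arm order, with peaks at 15.4, 12.5, 13.3 and 13.0 h. Adjusted p-values over 18540 probe sets in limma were 0.00275, 3.50e-06, 1.85e-04 and 2.58e-04, and no omission of a single array raised them above 0.0117. Within arms and times both Cdkn1b probe sets correlated at 0.239 over 103 arrays. This probe set was singled out after its values were seen.

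The other tested inhibitors were Cdkn1c (p57) and the Cdk4 and Cdk6 inhibitors Cdkn2c (p18) and Cdkn2d (p19), and none was called rhythmic. Cdkn1c ranged from 6.96 to 10.14 in adult CR (median 7.87) and from 6.75 to 9.66 in aged control (median 7.84), and in adult control and aged CR its highest arrays were at 8.45 and 8.94. Its amplitudes were 0.33 and 0.38 in the CR arms (limma adjusted p = 0.103 and 0.0893). Cdkn2a and Cdkn2b, which encode p16 and p15 and are known as senescence markers, lay under the filter, with arrays from 3.55 to 4.40 and from 3.88 to 5.29.

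**Figure D3:**
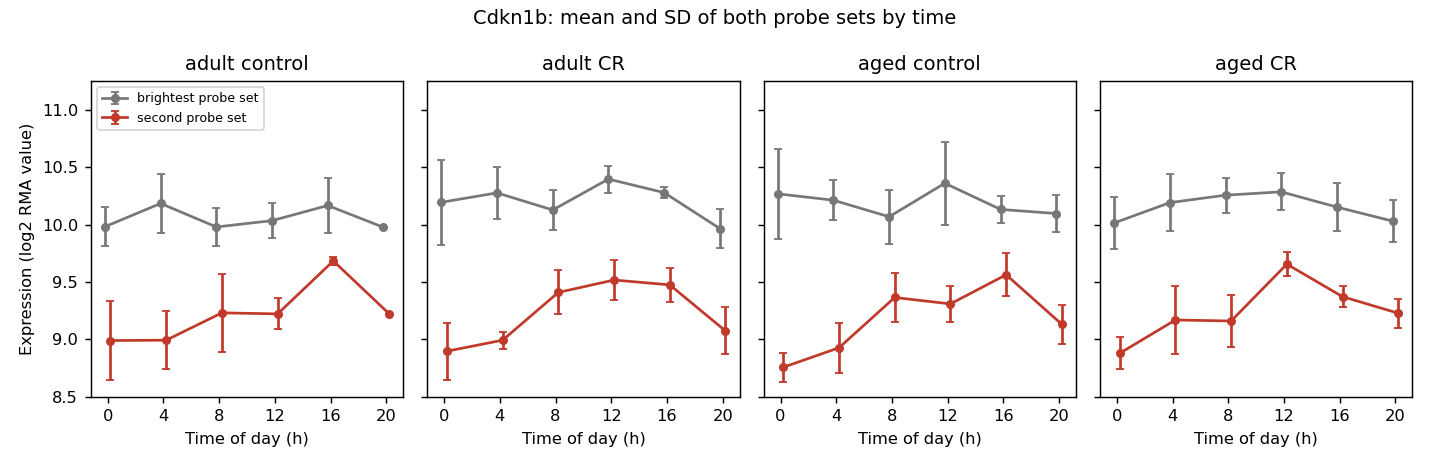
Mean log2 RMA value (y axis) of the 2 Cdkn1b probe sets by time of day in hours (x axis) in each arm; bars are SDs over 4 to 6 arrays, and the single adult control array at T20 has none. The second probe set runs from a low at T0 to a high between T12 and T16 in every arm, and the brightest one has no such course.

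The D-type cyclins, the activating partners of Cdk4 and Cdk6, had fitted amplitudes from 0.08 to 0.59, and by the brightest probe sets only Ccnd1 was called. In adult control, Ccnd1 had means of 8.72 ± 0.30 at T0 (SD, n = 4), 8.63 ± 0.42 at T4 (n = 5), 9.61 ± 0.14 at T8, 9.49 ± 0.29 at T12 and 9.10 ± 0.38 at T16 (n = 4 each), and the 1 array of T20 was at 8.76. All arrays of T8 and T12 lay at or above 9.17, and those of T0 and T4 at or below 9.16. The amplitude was 0.51 ± 0.12 (SE, log2), a peak-to-trough ratio of 2.02, with the peak at 11.2 ± 0.90 h (limma adjusted p = 0.00738), and it was 0.52 without the T20 array (adjusted p = 0.0102). Rhythmic Schwann cell markers of adult control peaked at 10.7 to 13.7 h. With the mean of the Schwann markers as a covariate, the Ccnd1 amplitude was 0.41 and the adjusted p 0.108.

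In adult CR, Ccnd1 means stayed between 8.42 and 8.89 over the 6 times, with SDs up to 0.63, and the amplitude was 0.08 (adjusted p = 0.779). Aged control had a course like that of adult control, from 8.56 at T4 to 9.20 at T8, with an amplitude of 0.34 and a peak at 11.3 h that did not pass (adjusted p = 0.0811). The rhythm difference between CR and control in adult cells gave p = 0.00111 for Ccnd1, which was not called after adjustment over all genes (adjusted p = 0.528). The 3 Ccnd1 probe sets correlated at 0.628 to 0.725 within arms and times, but the second one was called in adult CR, with a peak at 2.28 h (adjusted p = 0.0014), and not in adult control.

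Ccnd2, the cyclin D used by many stem and progenitor cells, was called by some of its probe sets but not by the brightest. The brightest probe set had amplitudes of 0.59, 0.28, 0.48 and 0.30 in arm order, with no call (lowest limma adjusted p = 0.122), and its arrays spread widely, from 6.40 to 8.79 in adult control. Of the 6 Ccnd2 probe sets above the filter, however, 4, 4, 2 and 0 were called in arm order. 1 of the 2 aged control calls (adjusted p = 0.0472) was lost in 20 of 24 omissions. In adult control the called ones had amplitudes from 0.32 to 0.91 and peaks between 5.78 and 6.85 h. Ccnd3 was not called by its brightest probe set, while its dimmer one, with a mean of 5.54, was called in adult CR, aged control and aged CR with amplitudes of 0.48, 0.44 and 0.33. The aged CR call of that probe set was lost in 11 of 26 omissions. Both Ccnd3 probe sets correlated at 0.014 within arms and times.

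Among the later cyclins, Ccna2, Ccnb2 and Ccne1 passed the filter and none was called in any arm. Ccne1, the cyclin E that works with Cdk2 at the start of S phase, had its lowest adjusted p in aged control (0.0861). Ccna2, a cyclin of S phase and mitosis, stayed between arm medians of 5.51 and 5.64, with single arrays from 4.90 to 6.71.

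Cdc25b, a phosphatase that removes the inhibitory phosphate from Cdks before mitosis, had the smallest rhythm p of all members. In adult CR its means were 6.45 ± 0.23 at T0 (SD, n = 5), 6.42 ± 0.07 at T4 (n = 6), 6.50 ± 0.26 at T8 (n = 5), 6.41 ± 0.29 at T12 (n = 6), 5.66 ± 0.11 at T16 (n = 5) and 5.41 ± 0.30 at T20 (n = 5). Every array of T16 and T20 was at or below 5.81, and every array of the other times at or above 5.85. The amplitude was 0.53 ± 0.08, a peak-to-trough ratio of 2.09, with the peak at 6.44 ± 0.53 h (limma adjusted p = 4.99e-07). Its fitted high thus fell in the hours in which Cdkn1a of the same arm was low. In adult control the means were 6.33, 6.13, 6.43, 6.18, 5.65 and 5.85 from T0 to T20 (adjusted p = 0.0691). In aged CR the mean was still 6.38 ± 0.12 at T16 (n = 4), above all arrays of adult CR at that time, and 5.72 ± 0.30 at T20 (n = 4, amplitude 0.20, peak 10.5 h, adjusted p = 0.154). The age difference of the Cdc25b rhythm within CR had p = 3.67e-04 and an adjusted p of 0.208, the lowest unadjusted p of any rhythm difference among the members. Cdc25c, a related phosphatase, was not called in any arm.

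By the brightest probe sets of the 16 tested Cdks, Cdk20 was called in 3 arms, and Cdk4, Cdk12 and Cdk2 in 1 each. Cdk20, a kinase that is also called cell cycle-related kinase, was dim, with arrays from 4.18 to 5.45 around the filter. Its means in adult control fell from 5.01 ± 0.15 at T0 (SD, n = 4) to 4.51 ± 0.16 at T8 (n = 4), and the groups of arrays at these times did not overlap. The amplitudes of the adult control, adult CR and aged CR fits were 0.23, 0.17 and 0.23, with peaks at 23.4, 1.95 and 4.52 h (limma adjusted p = 0.0245, 0.0317 and 0.0118). In aged control the amplitude was 0.15 with a peak at 0.36 h (adjusted p = 0.153). The adult control call was lost without T0 replicate 1, T0 replicate 3 or T12 replicate 3, and the adult CR call in 7 of 32 omissions (T0 replicate 1, T4 replicate 2, T12 replicates 2, 5 and 6, T16 replicates 4 and 5), with adjusted p up to 0.0876 and 0.0742. Of 12 alternative fits, the adult control call was lost in 4 and the adult CR call in 5. The aged CR call held in 26 of 26 omissions. With the Schwann marker mean as a covariate, the adjusted p of Cdk20 was 0.0934 in adult control and 0.0985 in adult CR.

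Cdk12, which phosphorylates RNA polymerase II and is a transcriptional rather than a cell cycle kinase, was called in aged CR. Its arrays at T8 lay between 8.17 and 8.21 (mean 8.19 ± 0.02, SD, n = 4), below every aged CR array of T0, T4, T16 and T20, whose means were 8.74, 8.77, 8.92 and 8.92. The amplitude was 0.33 ± 0.06 with a peak at 20.7 h (limma adjusted p = 2.16e-04). Adult CR had a low at T8 too, at 8.38 ± 0.27 (n = 5), with an amplitude of 0.16 (adjusted p = 0.0747). A second Cdk12 probe set was called in adult CR instead, with its peak at 6.20 h.

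Cdk4, the main partner of the D-type cyclins, had means in adult CR of 8.16, 8.40, 8.58, 8.34, 7.87 and 7.94 from T0 to T20, with SDs from 0.21 to 0.46. The arrays of T8 (8.35 and above) and of T16 (8.10 and below) did not overlap. Its amplitude was 0.34 ± 0.09, with the peak at 6.95 h (limma adjusted p = 0.0132), and the call was lost with time as 6 levels (adjusted p = 0.0531). Its 3 probe sets correlated at 0.764 to 0.903. Cdk2, the partner of cyclins E and A, was called in aged CR, with means of 6.75 ± 0.15 at T0 (n = 5) and 5.98 ± 0.44 at T12 (n = 5), whose arrays did not overlap. Its amplitude was 0.39 ± 0.10 and its peak at 21.3 h (adjusted p = 0.0153), and the call was lost without aged CR T8 replicate 4 (adjusted p = 0.0566) and with matched numbers of arrays (0.0677). Cdk6 and Cdk1 were not called by their brightest probe sets, and a dimmer Cdk6 probe set was called in aged control (adjusted p = 0.0406, lost in 8 of 24 omissions). Of 5 Cdk7 probe sets, dimmer ones were called in every arm. That with a mean of 4.53 was called in adult control and adult CR (adjusted p = 4.51e-04 and 3.61e-04), with no call lost by omissions. That at 4.56 was called in aged control and aged CR (0.0250 and 0.0409, lost in 2 of 24 and 9 of 26). That at 5.43 was called in aged control (0.0180). A dimmer Cdk13 probe set was called in adult CR (0.0043, lost in 0 of 32). Cdk1, the mitotic kinase, had arrays from 4.31 to 5.70 and its lowest adjusted p in adult CR (0.0563).

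The E2f factors had 1 call among the 7 tested. E2f2, an activating E2f, had means in adult CR of 7.14 ± 0.58 at T0 (SD, n = 5), 6.18 ± 0.23 at T4 (n = 6), 6.32 ± 0.15 at T8 (n = 5), 6.66 ± 0.28 at T12 (n = 6), 6.62 ± 0.38 at T16 (n = 5) and 7.03 ± 0.39 at T20 (n = 5). The highest array of T4 was at 6.62 and the median of T20 at 6.97. Its amplitude was 0.39 ± 0.10 with a peak at 19.9 h (limma adjusted p = 0.00879). The call was lost without the T20 arrays (adjusted p = 0.0585) and with matched numbers of arrays (0.254). T0 also had the highest mean in the other arms, at 7.28, 7.15 and 7.09 in adult control, aged control and aged CR, without a call. E2f1 and E2f4, an activating and a repressing member, were not called by their brightest probe sets. A dimmer E2f1 probe set, with a mean of 4.70, was called in adult CR (limma adjusted p = 0.0187, lost in 0 of 32 omissions). Both E2f1 probe sets correlated at 0.048 within arms and times.

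Of the 8 tested Mcm genes, Mcm4 and Mcm10 were called in adult CR and none in the other arms. Mcm10, which helps to start the helicase, ranged from 4.95 ± 0.14 at T4 (SD, n = 6) to 5.32 ± 0.15 at T16 (n = 5), with an amplitude of 0.16 and a peak at 14.0 h (limma adjusted p = 0.0181). That call was lost with time as 6 levels (adjusted p = 0.0551) and with matched numbers of arrays (0.0626). Mcm4, a subunit of the helicase, ranged from 4.88 ± 0.21 at T0 (n = 5) to 5.33 ± 0.41 at T12 (n = 6), with an amplitude of 0.18 and a peak at 9.48 h (adjusted p = 0.0301). The Mcm4 call was lost without T0 replicate 1, T0 replicate 4, T12 replicate 3 or T12 replicate 5, with adjusted p up to 0.0846, with the Schwann marker mean as a covariate (0.0585), with matched numbers of arrays (0.0586) and with separate fits (0.0697). Mcm2, Mcm3, Mcm5, Mcm6 and Mcm7, the other subunits, were not called by their brightest probe sets. The other Mcm3 probe set was called in adult control (adjusted p = 0.0442, lost in 8 of 22 omissions) and aged control (0.0293, lost in 2 of 24). Mcm6 had the largest fitted amplitudes of the subunits in both CR arms and in aged control, at 0.34, 0.37 and 0.43, on arrays that spread from 3.94 to 6.58.

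Because several genes had probe sets that differed, each of the 76 member probe sets above the filter was also fitted by itself, a step added after the data were seen. Then 9, 20, 8 and 8 were called in arm order, or 11.8%, 26.3%, 10.5% and 10.5% of the member probe sets. Among all 18540 probe sets the shares were 10.8%, 22.6%, 10.9% and 16.8%. The called probe sets belonged to 6, 15, 6 and 7 genes, 18 in all, and a gene with several probe sets had more chances to be called. When probe sets of a gene were averaged in place of taking the brightest, 5, 13, 5 and 5 of 44 members passed, beside 11.2%, 22.6%, 11.2% and 17.7% of all genes. Of 19 members with more than 1 probe set, 9 had a median correlation between their probe sets under 0.1 over 103 arrays.

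The mean levels of the members differed little with age or diet. No member passed the test in any of the 4 comparisons, nor in the interaction of age and diet, by limma at an adjusted 5%. The background was low as well, with 0.422% of all genes called for age in the control diet, 1.94% for age within CR, 1.05% for diet in adult cells, 2.29% for diet in aged cells and 0% for the interaction. At an unadjusted p under 0.05 the members numbered 5, 4, 9, 7 and 3 of 44, beside 10.3%, 14.3%, 13.1%, 15.4% and 7.66% of all genes. The 95% interval of the day-mean difference lay wholly within 0.5 log2 units of 0, that is within 1.41-fold, for 42, 42, 40 and 41 of 44 members in the 4 comparisons. Those outside were Ccnd2 and Mcm5 for both age comparisons, Ccnd1, Ccnd2, Cdkn1c and Mcm6 for diet in adult cells, and Cdkn1c, Mcm5 and Mcm9 for diet in aged cells. RMA compresses differences of dim probe sets, so the intervals of members near the filter may be too close to no change. Such members include Cdk3 and E2f5 (means of 4.63), Cdk1 and Mcm2 (4.89) and Ccnb2 (4.93). The median difference of the members was -0.0058, -0.0087, 0.023 and 0.0060 (log2), beside 0.0089, -0.00080, 0.0076 and -0.0016 for all genes.

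**Figure D4:**
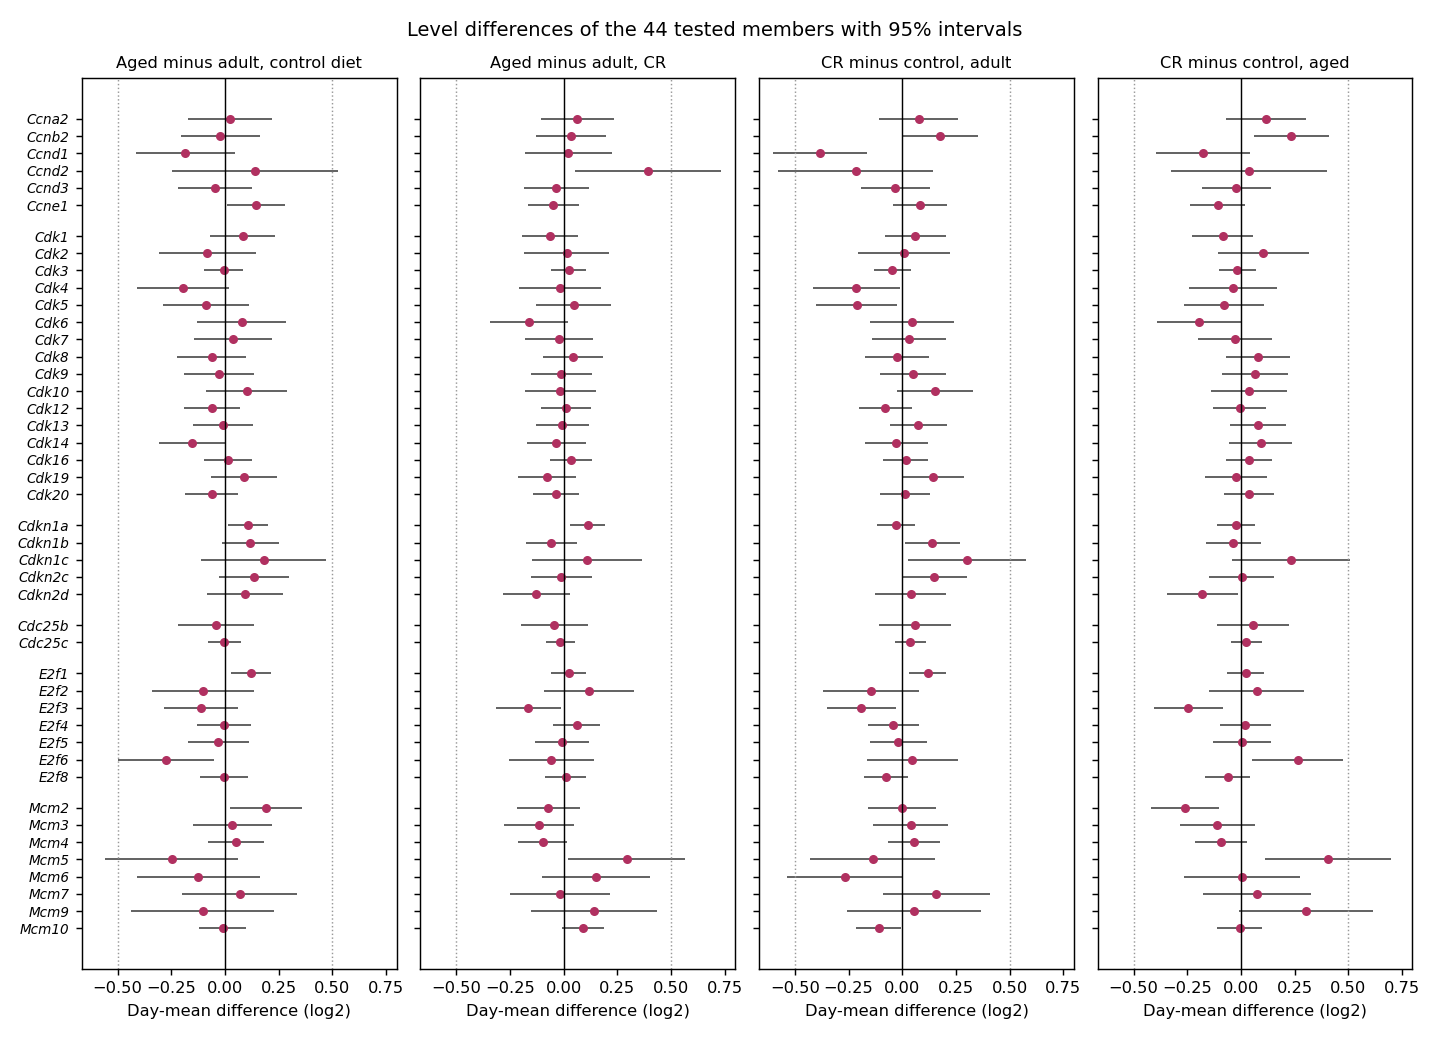
Differences in day mean (log2, x axis) of the 44 tested members (y axis) for the 4 comparisons of age and diet; points are limma estimates, lines 95% intervals, and dotted lines mark 0.5 log2 units each way. Most intervals lie between the dotted lines, and no difference passes at an adjusted 5%.

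The age comparisons had E2f1 and E2f6 with the smallest p in the control diet and Cdkn1a and Ccnd2 within CR. E2f1 arrays were between 4.76 and 5.28 (median 4.98) in adult control and between 4.90 and 5.34 (median 5.12) in aged control, and the groups overlapped over most of their range. The difference was 0.12 ± 0.05 (SE, log2, limma adjusted p = 0.312), and that of E2f6, a repressing E2f, was -0.27 ± 0.11 (adjusted p = 0.345). Cdkn1a arrays were between 10.31 and 11.23 (median 10.76) in adult CR and between 10.42 and 11.33 (median 10.93) in aged CR, and overlapped. Its difference was 0.11 ± 0.04 within CR (adjusted p = 0.149) and 0.11 ± 0.05 in the control diet (adjusted p = 0.386). Ccnd2 differed by 0.39 ± 0.17 within CR (adjusted p = 0.254).

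The diet comparisons came closest to a call. Ccnd1 arrays in adult control were between 7.91 and 9.85 (median 9.13) and in adult CR between 7.92 and 9.74 (median 8.56), and most of the range was shared. The difference, CR minus control, was -0.38 ± 0.11 (SE, log2), with a 95% interval from -0.60 to -0.17 and a limma adjusted p of 0.0553. In the same comparison the fibroadipogenic markers Dpt, Gsn and Col3a1 differed by -0.24, -0.18 and -0.30. The mean of the 5 markers ranged from 9.66 to 10.37 over adult control arrays and from 9.37 to 9.98 over adult CR arrays, with Pdgfra and Lum under the filter and not among the 5, and the part of such cells in the Ccnd1 difference was not tested. The Ccnd1 difference passed in 6 of 12 alternative fits and in 10 of 54 omissions of 1 array, with the sign the same in each. The 10 arrays were adult control T4 replicate 2, T12 replicate 3 and T16 replicate 1, and adult CR T0 replicates 1 and 4, T8 replicates 1, 3 and 5, T12 replicate 6 and T20 replicate 3. For E2f1 in adult cells the difference was 0.12 ± 0.04 (adjusted p = 0.185). In aged cells, Mcm2 arrays were between 4.56 and 5.92 (median 4.93) in control and between 4.35 and 5.46 (median 4.76) under CR. The difference was -0.26 ± 0.08 (adjusted p = 0.0579), and for E2f3, an activating E2f, it was -0.24 ± 0.08 (adjusted p = 0.088). A call of Mcm2 appeared in 8 of 50 omissions, those of aged control T0 replicates 3 and 4, T4 replicate 4, T12 replicate 1 and T16 replicate 4, and of aged CR T0 replicate 4, T8 replicate 3 and T20 replicate 3. Of 11 alternative fits, the Mcm2 difference passed in 1, with the mean of all probe sets, and limma adjusted p ran from 0.0227 to 0.224. The 2 Mcm2 probe sets correlated at -0.048 within arms and times. The interaction of age and diet had Mcm5 and Mcm2 with the smallest p, at 0.54 ± 0.21 (adjusted p = 0.494) and -0.26 ± 0.11 (adjusted p = 0.582).

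Rhythm differences were called in 0 of 44 members for each of the 4 comparisons, beside 0%, 0.00844%, 0.0253% and 0.388% of all genes for age in the control diet, age within CR, diet in adult cells and diet in aged cells. At an unadjusted p under 0.05 there were 0, 3, 1 and 6 members of 44, beside 4.04%, 9.86%, 6.45% and 13.8% of all genes. The smallest p belonged to Cdc25b and Mcm6 (adjusted p = 0.999 for both), Cdc25b and Ccne1 (0.208 and 0.392), Ccnd1 and Ccnd3 (0.528 and 0.844), and Cdc25c and Cdkn1a (0.185 and 0.209) in that order of comparisons (limma adjusted p). The arms were therefore not shown to differ in the rhythm of any member, although the calls by arm were different.

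Members correlated weakly with one another within arms and times, but so did probe sets of the same gene. For the 19 members with more than 1 probe set, the median of their median correlations was 0.107. Low values between genes are thus no sign that the genes themselves vary apart. Over 103 arrays, the median correlation of the 946 pairs of members was 0.02, beside 0.00 for all pairs of tested genes. It was 0.11 for the cyclins A, B and E, 0.11 for the E2f factors, 0.09 for the D-type cyclins, 0.04 for the Cdks and -0.01 for the Cdk inhibitors. For the 8 Mcm genes it was -0.03, and for the helicase subunits Mcm2 to Mcm7 among them 0.02. The highest pairs were Cdk9 with Cdkn1b (0.58), Ccnd3 with Cdk16 (0.56), Cdk6 with Mcm3 (0.44), Ccna2 with Mcm6 (0.44), Ccnd1 with Cdk4 (0.43) and Ccna2 with Cdk1 (0.43). The lowest were Cdk3 with Cdk5 (-0.47) and Cdc25c with Cdk4 (-0.37). Both genes of a pair are read from the same array and share its normalization, and the values are a description.

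Promoter sequences of 40 of the 53 members, 48 windows in all, were in the RefSeq table (assembly GRCm38.p6), each from 250 bases before to 50 bases after a gene start. They were searched on both strands for the E-box CACGTG, which the clock factors Clock and Bmal1 bind, the cell cycle homology region (CHR) TTTGAA, the CCAAT box CCAAT and the E2F motifs TTTCGCG and TTTGGCG. Matches were counted whether or not they overlapped, and the 2 E2F motifs do overlap on opposite strands in some windows. An E-box was in 9 member windows (18.8%) against 7.15% of all 32851 windows, a CHR in 8 (16.7% against 17.9%), a CCAAT box in 28 (58.3% against 37.4%) and an E2F motif in 10 (20.8% against 2.37%). All 9 windows of the Mcm genes held a CCAAT box and 6 of them an E2F motif. Of the 15 windows of Cdk genes, 6 held an E-box. Among the 8 rhythmic members with a window, the E-box was in those of Cdk4 and Cdk20 only, 4 times and 2 times.

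The bases before the start are shown for these 2 kinases, whose E-boxes are in capitals, and for Mcm5 and Mcm6, whose E2F motifs and CCAAT boxes are in capitals. Mcm5 and Mcm6 each carry the 2 E2F motifs as an overlapping pair on opposite strands. Neither gene was called rhythmic, whereas E2f2 and Mcm10, whose windows also hold an E2F motif, were called in adult CR. A match describes the letters only. The Cdk4 window lies at chr10:127063285-127063534 (plus strand), that of Cdk20 at chr13:64432303-64432552 (plus), that of Mcm5 at chr8:75109259-75109508 (plus) and that of Mcm6 at chr1:128359706-128359955 (minus), all 5′ to 3′ and ending at the base before the start.
Cdk4: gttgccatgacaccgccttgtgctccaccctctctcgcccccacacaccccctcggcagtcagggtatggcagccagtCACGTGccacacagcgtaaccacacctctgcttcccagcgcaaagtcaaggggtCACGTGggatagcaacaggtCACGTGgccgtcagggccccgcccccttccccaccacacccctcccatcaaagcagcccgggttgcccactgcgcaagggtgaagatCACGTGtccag
Cdk20: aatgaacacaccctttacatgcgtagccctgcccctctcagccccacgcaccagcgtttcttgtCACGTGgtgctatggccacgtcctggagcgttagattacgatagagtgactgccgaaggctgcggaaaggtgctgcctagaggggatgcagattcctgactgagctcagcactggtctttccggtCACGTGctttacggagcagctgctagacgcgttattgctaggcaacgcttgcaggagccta
Mcm5: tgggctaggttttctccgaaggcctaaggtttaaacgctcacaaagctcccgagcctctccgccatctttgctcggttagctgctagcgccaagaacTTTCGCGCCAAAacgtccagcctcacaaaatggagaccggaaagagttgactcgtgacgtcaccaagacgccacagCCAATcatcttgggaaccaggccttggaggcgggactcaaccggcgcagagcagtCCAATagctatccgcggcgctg
Mcm6: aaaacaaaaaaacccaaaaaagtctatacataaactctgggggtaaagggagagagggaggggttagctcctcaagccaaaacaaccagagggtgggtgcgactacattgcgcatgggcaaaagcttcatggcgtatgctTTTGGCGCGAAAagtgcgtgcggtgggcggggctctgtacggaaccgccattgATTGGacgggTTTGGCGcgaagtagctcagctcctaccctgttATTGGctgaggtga

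The rest of the pathway, from lists chosen by known role, held the following calls. Of 30 replication genes other than Mcm, 4, 7, 2 and 3 were rhythmic in arm order. The shares of all tested genes to set beside this and the following list counts are 10.6%, 22.4%, 10.8% and 16.5%, and for levels 1.94% with age within CR and 2.29% with diet in aged cells. Tyms, thymidylate synthase, was called in adult control, aged control and aged CR (amplitudes 0.42, 0.43 and 0.28), and Rfc1 and Rfc5, subunits of the clamp loader, in 3 and 2 arms. Levels of Gins1, part of the replicative helicase, rose with age within CR by 0.39 ± 0.11 (SE, log2, limma adjusted p = 0.0416) and with CR in aged cells by 0.46 ± 0.12 (adjusted p = 0.0192), and Rfc4 rose with CR in aged cells by 0.46 ± 0.12 (adjusted p = 0.0133). Of 18 mitosis genes, 2, 6, 2 and 2 were rhythmic and 0 differed in level. Top2a, the mitotic topoisomerase, was called in both adult arms with amplitudes of 0.15 and 0.14.

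Among 4 checkpoint kinases, Wee1, which adds the phosphate that Cdc25 phosphatases remove and is a known clock-controlled gene, was rhythmic in every arm. Its amplitudes were 0.68 ± 0.15, 0.59 ± 0.12, 0.50 ± 0.14 and 0.77 ± 0.13 with peaks at 11.2, 11.1, 10.1 and 10.2 h in arm order (limma adjusted p from 4.78e-05 to 0.0296). Pkmyt1, its relative, was called in both CR arms, and Atm rose with CR in aged cells by 0.39 ± 0.11 (adjusted p = 0.0439). Of 11 other cyclins, 3, 5, 2 and 4 were rhythmic, with Ccni in every arm (amplitudes 0.43, 0.24, 0.53 and 0.45) and Ccng2, a cyclin linked to cell cycle arrest, in 3 arms. Of 13 p53 targets, 4, 3, 3 and 1 were rhythmic, with Trp53inp1 in every arm at amplitudes of 0.67 to 0.76. Among 9 pocket proteins and partners 1, 3, 0 and 2 were rhythmic, and Rb1, the retinoblastoma protein, rose with age within CR by 0.33 ± 0.08 (adjusted p = 0.0117). Of 9 FoxO and glucocorticoid targets, 5, 6, 2 and 4 were rhythmic. Tsc22d3 and Zbtb16 were called in every arm.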

How the data were processed

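The authors deposited 1 table of log2 expression values for 45141 probe sets on 104 arrays, made with RMA per the submitters' processing notes. The log2 base is inferred from the range of 1.186 to 12.836. RMA compresses differences of dim probe sets, and the number of arrays limits the precision. No build is named. Probe sets with a mean under the 40th percentile (4.504) were left out, and the brightest probe set stood for a gene, leaving 11853 genes. A cosine and sine of 24 h and a day mean per arm were fitted to all arrays with limma 3.58.1 (R 4.3.3). Rhythms were tested by the moderated F-test, and level and rhythm differences by contrasts, with Benjamini-Hochberg adjustment over all genes at 5%. The scripts were tested on simulated data. Alternatives covered the filter, probe sets, time as levels, array weights, quantile normalization, array numbers, the replicate block, marker covariates and omission of each array.

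Members and lists were chosen with earlier results of these data known. Named were the main Cdk inhibitors, D-type cyclins, Cdks, E2f and Mcm genes, every called member, the pair of smallest p where a comparison called none, members under the filter, and up to 4 called genes per other list and comparison. The dimmer Cdkn1a, Cdkn1b, Ccnd1, Ccnd2, Ccnd3, Cdk6, Cdk7, Cdk12, Cdk13, E2f1 and Mcm3 probe sets were chosen after their values were seen. Replicates are those of the array titles, and p-values measure the spread between these samples.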

Additional observations from a re-analysis of the deposited data

Results flagged for a closer look

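In the 6 members shown at every time, 138 groups of 4 to 6 arrays were checked for an array far from the others of its arm and time by Dixon's ratio, and 9 stood apart. Chance alone gives about 1 in 20 such groups. Ccnd1 in adult CR at T16 had replicate 4 at 7.92, with the next array at 8.53. For Cdc25b, aged control T8 replicate 3 was at 6.58 (next 6.15) and adult CR T12 replicate 3 at 5.85 (next 6.43). Cdk12 had aged CR T4 replicate 1 at 9.13 (next 8.69) and adult CR T4 replicate 2 at 8.22 (next 8.63). Cdk20 had aged control T0 replicate 1 low at 4.61 (next 4.76), aged control T12 replicate 4 high at 4.61 (next 4.39) and adult CR T0 replicate 1 at 5.13 (next 4.85). Cdkn1a in adult control at T12 had replicate 3 at 10.59, with the next array at 10.88. The adult CR call of Cdk20 was among those lost without its array named here.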

How the results depend on the processing

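The level differences of Ccnd1 and Mcm2 kept their sign in every alternative run. No peak of a called rhythm moved by more than 6 h. Amplitudes and counts of members have no sign to change. Of 167 counts of members under alternatives 141 stayed within 1.5 times the main count. Most main counts were 0, and these stayed only by being 0 again. Of 187 single-gene values 161 kept their side of the threshold. The calls of Cdc25b and Cdkn1a in adult CR and of Cdk12 and Cdkn1a in aged CR held in every alternative run. That of Cdk20 in aged CR held in every run that tested it, but the filter at the 60th percentile left Cdk20 out. The adult control count of 2 was 1 with the filter at the 60th percentile, 5 with the mean of all probe sets, 4 with time as 6 levels, 0 with the Schwann covariate, 1 with ranks and 6 with every probe set by itself. The adult CR count of 7 was 4 at the 60th percentile, 13 with the mean of all probe sets, 3 with matched numbers of arrays and 15 with every probe set by itself. The aged control count of 0 was 5 with the mean of all probe sets, 1 with time as 6 levels, 2 with array weights, 1 with quantile normalization, 1 with the Schwann and 1 with the myofibre covariate, and 6 with every probe set by itself. The aged CR count of 4 was 7 with every probe set by itself. The level count for diet in adult cells went from 0 to 1 (Ccnd1) at the 60th percentile, without T20, with matched numbers, array weights, quantile normalization and the myofibre covariate. For diet in aged cells it went from 0 to 1 with the mean of all probe sets (Mcm2) and with time as 6 levels (a member other than Mcm2). The cause was not tested, other than that the stricter filter tests fewer genes and matched numbers use fewer arrays.

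Omitting 1 array at a time gave 1 to 4 rhythmic members in adult control, 5 to 9 in adult CR, 0 to 3 in aged control and 3 to 5 in aged CR. Level counts ranged from 0 to 1 for diet in adult cells and from 0 to 2 for diet in aged cells, and were 0 to 0 otherwise. The adult control count moved by over 1.5 times without T0 replicate 1 or 3, T4 replicate 3 or T12 replicate 3. The aged control count left 0 without T0 replicate 1 or 2, T12 replicate 2 or 4, or T16 replicate 2. With arm and time means removed, same-numbered arrays of different arms at one time correlated at medians from -0.006 to 0.046. Single pairs ran from -0.259 to 0.386, and differently numbered arrays had medians from -0.012 to 0.011. Such values cannot exclude that some samples were paired. With the replicate block the counts were 2, 7, 0 and 4 for rhythm and 0 for levels. Genes near the filter at 4.504 carry little signal over background. Among others this limits Cdk3 and E2f5 (means of 4.63), Cdk20 (4.67), Cdk8 (4.72), Cdk1 and Mcm2 (4.89) and Ccnb2 (4.93).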
